A study of Mus musculus with 20 samples.

Results

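The prolactin 2c genes Prl2c2, Prl2c3 and Prl2c5, known as the proliferin genes, are 3 of the 52783 genes in the count table of sorted mouse mammary tumour cells. They were chosen by name, as genes with high values in 66cl4 CD45+ cells relative to 67NR CD45+ cells, so that comparison is given below as a description only. They are listed as ENSMUSG00000079092 (Prl2c2), ENSMUSG00000056457 (Prl2c3) and ENSMUSG00000055360 (Prl2c5), and all of them lie on chromosome 13. The tumours were grown in female BALB/cJ mice by injecting 1000000 cells of 66cl4 or 67NR into the mammary fat pad. Both are cell lines of the 4T1 mouse breast cancer model, 66cl4 being the metastatic line and 67NR the non-metastatic one. No treatment was given. Tumours were dissociated and sorted into CD45+ (immune) and CD45- (non-immune) cells, and bulk mRNA was sequenced from each gate, with 5 animals per tumour and 20 libraries in 4 groups. The CD45- gate holds the injected cancer cells together with host stromal cells, since nothing in the sort separated them.

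Proliferins are secreted glycoproteins of the prolactin and growth hormone family. In the mouse they are made by trophoblast giant cells of the placenta, where they stimulate the growth of blood vessels, and they were first found as transcripts induced by serum and growth factors in cultured fibroblast lines. The protein carries mannose 6-phosphate and binds the cation-independent mannose 6-phosphate receptor, encoded by Igf2r, which also takes up IGF2 and sorts enzymes to lysosomes.

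The genes are near-identical copies, which limits how far their counts can be told apart. Over the aligned transcript sequence, Prl2c2 and Prl2c3 were identical at 99.5% of positions, differing at 4 of 842 bases. Prl2c5 was 96.6% identical to Prl2c2 and 96.4% identical to Prl2c3. Of the 86-base stretches of each transcript, 26.0% were found in no other gene for Prl2c2, 33.4% for Prl2c3 and 85.9% for Prl2c5. The values of Prl2c2 and Prl2c3 taken singly therefore depend more on how the counting divided shared reads than those of Prl2c5, and the sum of the 3 genes does not depend on that division. Stretches were also shared with Gm7040 and Prl2c1, which took almost no counts. Gm7040 reached at most 3 counts in a library, and Prl2c1 was at 0 in all 20.

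The sequences before the gene starts are shown because the copies moved together between the tumours. They are from RefSeq, build GRCm38.p6, and are written 5′ to 3′ on the strand of the gene. Prl2c2 had no entry in the promoter set used, so its sequence was neither shown nor searched. The region is chr13:12800080-12800329 on the minus strand for Prl2c3 and chr13:13182466-13182715 on the plus strand for Prl2c5. Capitals mark a TATA box (letters TATATAA) and, in Prl2c3, a match to an AP-1-like pattern (letters TGANTCA, N being any base). The stretch marked in Prl2c3 reads TGAATCA.
Prl2c3: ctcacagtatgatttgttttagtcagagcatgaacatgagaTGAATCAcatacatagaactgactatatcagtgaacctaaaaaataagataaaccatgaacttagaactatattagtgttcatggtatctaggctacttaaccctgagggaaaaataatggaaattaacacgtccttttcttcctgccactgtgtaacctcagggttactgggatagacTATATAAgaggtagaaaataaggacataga
Prl2c5: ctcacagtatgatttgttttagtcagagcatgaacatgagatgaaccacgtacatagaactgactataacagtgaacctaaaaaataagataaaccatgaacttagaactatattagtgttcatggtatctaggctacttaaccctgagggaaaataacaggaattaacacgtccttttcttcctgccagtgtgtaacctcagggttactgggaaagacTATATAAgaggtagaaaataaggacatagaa
These promoters were identical at 241 of 249 aligned bases (96.8%) and differed at 8. The TATA box starts 30 bases before the gene start in Prl2c3 and 31 bases before it in Prl2c5, and these letters occur in 3.04% of 32851 promoters of this length on either strand. They were chosen for the search after the sequences had been seen. The AP-1-like letters start 209 bases before the Prl2c3 start, were not in the Prl2c5 sequence, and occur in 6.75% of promoters. The letters TGTTCT, a half-site of the glucocorticoid receptor (16.1% of promoters), and CCAAT (33.8%) were in neither sequence. A match is a match of letters only.

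Library totals ranged from 12960000 to 28080314 counts. Ptprc, which encodes CD45, averaged 75.2 normalised counts in 66cl4 CD45- and 267 in 67NR CD45- cells, against 19511 and 21884 in the CD45+ groups. In 4 libraries, both gates of animals 5 and 6 with 66cl4 tumours, the cell type given in the labels is opposite to the gate in the title. These were grouped by title, their Ptprc values matched the title, and results are given with and without those animals. Summed epithelial markers (11 genes) ranged from 6124 to 6882 normalised counts in 66cl4 CD45- and from 155 to 577 in 67NR CD45- cells. Summed fibroblast markers (10 genes) ranged from 10415 to 16574 and from 11680 to 19888. Between the CD45- groups, 13.2% of all genes tested were called higher in 66cl4 and 18.9% lower by the rule given below. Of the markers, 2 of 6 tested epithelial markers were called higher in 66cl4 (Krt8, 6.47 on the log2 scale, and Krt18, 4.32). Epcam was called lower (-1.41). Krt8 and Krt18 averaged 5353 and 1149 normalised counts in 66cl4 CD45- cells and make up most of the epithelial sum there. The other epithelial markers averaged at most 22.7 in that group, and among them only Krt14 had a higher mean in 66cl4 than in 67NR CD45- cells (15.8 against 5.44). Of 10 fibroblast markers 1 was called higher and 4 lower, of 8 endothelial markers 7 lower, and of 10 leukocyte markers 1 higher and 6 lower. Their part in the proliferin values was not tested. In bulk samples, fewer cells of a type and less RNA per cell cannot be told apart.

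Proliferin transcripts were abundant in 66cl4 CD45- cells and nearly absent from 67NR CD45- cells. Summed over the 3 genes, the 66cl4 CD45- libraries of animals 3, 4, 5, 6 and 7 held 15250, 32278, 45816, 52588 and 36781 normalised counts. The 67NR CD45- libraries of animals 1, 4, 5, 6 and 7 held 12.3, 26.3, 63.2, 62.5 and 63.4. The groups did not overlap, and the lowest 66cl4 library was 241-fold above the highest 67NR library. Animal 3 was the lowest of the 66cl4 libraries.

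Prl2c3 had the highest level of the 3 genes. Its normalised count was 10649, 24450, 34408, 40653 and 27319 in 66cl4 CD45- cells (27496 ± 11336, SD, n = 5) and 8.77, 15.8, 49.2, 44.5 and 51.1 in 67NR CD45- cells (33.9 ± 20.02, n = 5). Prl2c2 was 4022, 5952, 9337, 8976 and 7650 in 66cl4 (7187 ± 2213) and 3.51, 7.502, 9.66, 15.6 and 9.20 in 67NR (9.10 ± 4.38). Prl2c5 was 580, 1877, 2072, 2958 and 1812 in 66cl4 (1860 ± 850) and 0, 3.001, 4.39, 2.34 and 3.07 in 67NR (2.56 ± 1.61). For each gene every 66cl4 library was above every 67NR library, by at least 132-fold for Prl2c5, 208-fold for Prl2c3 and 257-fold for Prl2c2. The share of all genes whose groups do not overlap is not given, here or in the other comparisons, so lack of overlap is a description only.

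**Figure D1:**
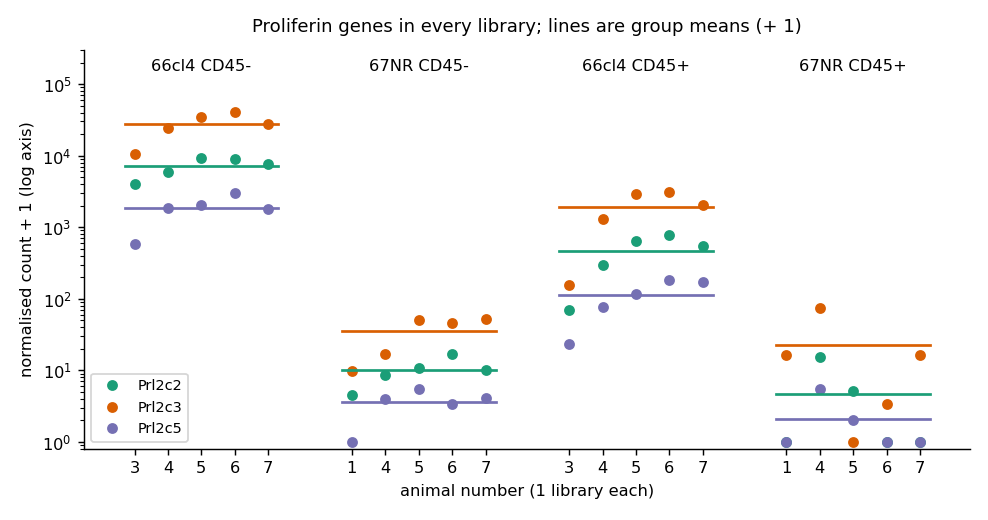
Normalised counts plus 1 (log axis) of Prl2c2, Prl2c3 and Prl2c5 in each of the 20 libraries, by group and animal number; points are libraries and lines are group means. In CD45- cells the 66cl4 libraries sit well above those of 67NR for all 3 genes, and in 66cl4 the CD45+ libraries sit below the CD45- libraries.

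In edgeR's quasi-likelihood test over 14844 genes, a gene was called where its Benjamini-Hochberg adjusted p was below 0.05 and its log2 fold change was above 1 or below -1. All 3 genes were called higher in 66cl4 CD45- cells, where 13.2% of all genes tested were called in that direction, 18.9% in the other and 32.2% in all. The log2 fold change was 9.63 (SE 0.351, adjusted p = 2.84e-10) for Prl2c2, 9.71 (SE 0.592, adjusted p = 2.02e-07) for Prl2c3 and 9.48 (SE 0.617, adjusted p = 3.46e-07) for Prl2c5. Ordered by log2 fold change, Prl2c3 was 7th, Prl2c2 8th and Prl2c5 12th of the genes tested. With the 3 genes replaced by their sum, the log2 fold change was 9.69 (SE 0.558, adjusted p = 9.87e-08 in the edgeR test), and the ratio of the group means was 803. A two-sided exact permutation test of the summed level gave p = 0.00794, the smallest that 5 libraries against 5 allow. Without 66cl4 animals 5 and 6 the log2 fold change of the sum was 9.33 (edgeR adjusted p = 1.44e-06). Prl2c2 and Prl2c5 had at most 20 and 5 counts in a 67NR CD45- library, and passed the low-count filter through their 66cl4 counts. The genes were chosen for high 66cl4 values in CD45+ libraries of the same animals, so these tests are not independent of that choice.

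Per transcript length, the genes ranked among the most abundant transcripts of 66cl4 CD45- cells. Mean TPM, in which counts are divided by transcript length and scaled to the same library total, was 2556 for Prl2c3, 801 for Prl2c2 and 175 for Prl2c5, ranks 59, 144 and 513 of 25446 genes with a count in that group. The same means in 67NR CD45- cells were 3.06, 0.998 and 0.236. As a share of all counts in a library, the sum took 0.0880 to 0.285% in 66cl4 CD45- cells.

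The division of the sum among the copies was similar in both gates of the 66cl4 tumours. Prl2c3 took 69.8 to 77.3% of the sum in CD45- and 63.1 to 79.4% in CD45+ libraries, Prl2c2 17.1 to 26.4% and 17.3 to 27.8%, and Prl2c5 3.80 to 5.81% and 3.09 to 9.09%. Animal 3 had the lowest share of Prl2c3 in each gate. These shares include the authors' division of shared reads, most of all between Prl2c2 and Prl2c3.

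**Figure D2:**
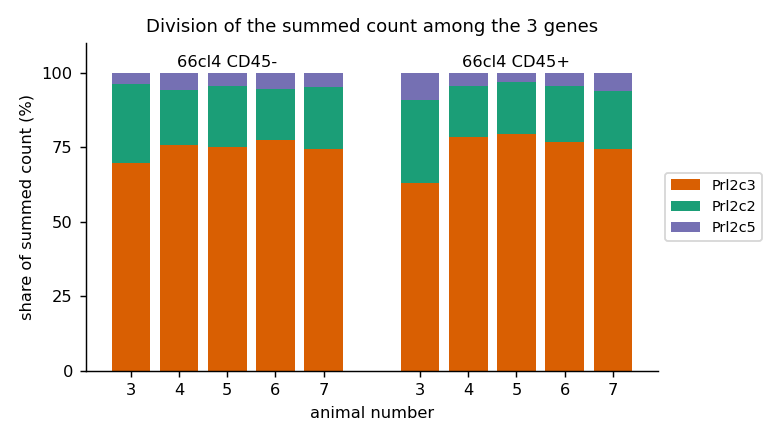
Share of the summed count (%, 0 to 100) taken by Prl2c3, Prl2c2 and Prl2c5 in each 66cl4 library, one stacked bar per animal and gate. Prl2c3 takes 63.1% or more of every bar and Prl2c5 at most 9.09%.

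In the 66cl4 tumours, proliferin transcripts were lower in CD45+ than in CD45- cells. The summed normalised count in 66cl4 CD45+ cells was 245, 1686, 3685, 4098 and 2778 in animals 3 to 7 (2499 ± 1564, SD, n = 5). Every CD45+ library was below every CD45- library, and animal 3 was again the lowest. These CD45+ libraries are among those by which the genes were chosen. That choice favours high values in them, so the tests between the 66cl4 gates are not independent of it.

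Between the gates, the 3 genes were called higher in 66cl4 CD45- cells, where 20.5% of 14916 genes were called in that direction, 23.9% in the other and 44.4% in all. The log2 fold change, CD45- over CD45+, was 3.97 (SE 0.533, edgeR adjusted p = 2.98e-05) for Prl2c2, 3.86 (SE 0.663, adjusted p = 0.000229) for Prl2c3 and 4.05 (SE 0.528, adjusted p = 2.35e-05) for Prl2c5. The ratio of means of the sum was 14.6, and its log2 fold change was 3.90 (SE 0.634, edgeR adjusted p = 0.000149). Without animals 5 and 6 it was 4.20 (edgeR adjusted p = 0.00333).

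Animal by animal, the CD45+ level of the sum was 1.61, 5.22, 8.04, 7.79 and 7.55% of the CD45- level of the same 66cl4 tumour. Other markers were set beside it. Krt8, a keratin of simple epithelia that was 6.47 higher on the log2 scale in 66cl4 than in 67NR CD45- cells, stood at 1.40, 6.55, 4.60, 5.54 and 9.93% in the same animals. Animal 3 had the lowest share for the sum and for Krt8. By group means, the CD45+ level was 6.84% of the CD45- level for the sum, 5.53% for Krt8 and 5.09% for Krt18. The other epithelial markers stood higher, from 9.91% (Krt14) to 1893% (Cdh1). Apart from Cdh1, these others averaged at most 22.7 normalised counts in either gate. Of the 10 fibroblast markers, 8 stood at 4.03 to 8.81%, while Fap stood at 122% and Thy1, which T cells also express, at 736%. Summed over each list, the share was 5.49 to 16.9% for fibroblast, 9.75 to 15.9% for epithelial and 101 to 237% for endothelial markers. Thy1 and Cdh1, both called higher in CD45+ cells, raise the fibroblast and epithelial sums. Pecam1 (1248% by group means) and Kdr (403%), also called higher in CD45+ cells, raise the endothelial sum. The other endothelial markers stood at 20.1% (Cdh5) to 78.9% (Tie1). The part that transcripts of CD45- cells have in the CD45+ values was not tested.

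**Figure D3:**
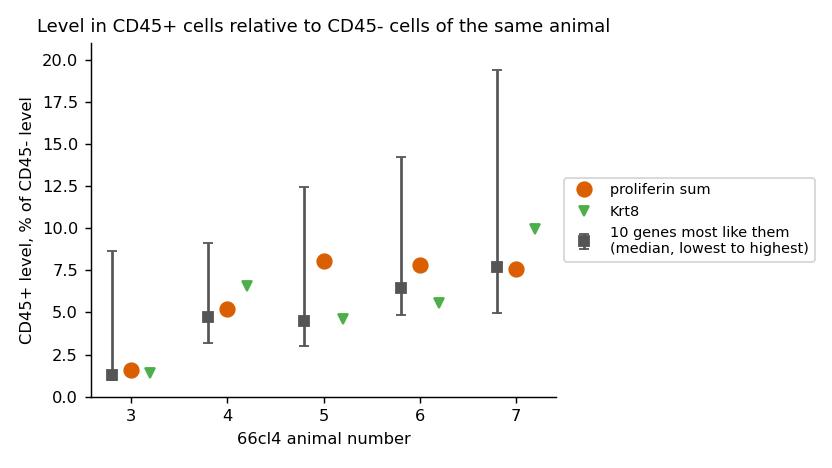
Level in CD45+ cells as a percentage of the CD45- level of the same 66cl4 animal, for the proliferin sum, Krt8, and the 10 genes whose pattern is most like the sum (median, with lines from lowest to highest). The proliferin sum runs from 1.61% in animal 3 to 8.04% in animal 5, and animal 3 is the lowest of the 5 animals in each series. The 10 genes were chosen by correlation with the sum over all libraries, these included, and Krt8 ranked 11 (r 0.962). Their likeness to the sum is therefore partly built in.

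In 67NR tumours the counts were low in both gates. The sum in 67NR CD45+ cells was 15.6, 92.3, 5.08, 2.40 and 15.4 normalised counts in animals 1, 4, 5, 6 and 7 (26.2 ± 37.5, SD, n = 5), and it overlapped the 67NR CD45- values. Animal 4 was far above the others. These libraries also chose the genes, and that choice favours low values in them, so the tests between the 67NR gates are not independent of it. Prl2c2 and Prl2c5 were at 0 counts in 3 of these libraries, where a count of 0 allows up to 3 counts, and did not pass the low-count filter in this comparison. Prl2c3 and the sum passed it and were not called, with log2 fold changes, CD45- over CD45+, of 0.63 (SE 0.880, edgeR adjusted p = 0.547) and 0.76 (SE 0.795, adjusted p = 0.415), where 19.6% of 15063 genes were called higher in CD45- cells, 20.2% lower and 39.8% in all. Without the CD45+ library of animal 4 the values were 2.06 (edgeR adjusted p = 0.0439) and 2.26 (adjusted p = 0.00825), so the call depends on that library, and nothing is read from it.

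The CD45+ values that chose the genes are given without a test. In 66cl4 CD45+ cells of animals 3 to 7, Prl2c3 held 154, 1321, 2926, 3145 and 2063 normalised counts (1922 ± 1226, SD, n = 5). Prl2c2 held 68.2, 291, 645, 771 and 545 (464 ± 283), and Prl2c5 held 22.3, 74.5, 114, 182 and 169.9 (112 ± 66.5). Animal 3 was the lowest for each gene. In 67NR CD45+ cells Prl2c3 ranged from 0 to 73.6, Prl2c2 from 0 to 14.3 and Prl2c5 from 0 to 4.40, each highest in animal 4. The ratio of the 66cl4 to the 67NR mean was 126 for Prl2c2, 89.7 for Prl2c3 and 104 for Prl2c5, and the libraries of the groups did not overlap. Without 67NR animal 4 these ratios were 457, 229.9 and 443. Of 14676 genes tested in this contrast, 5.01% were called higher in 66cl4, 6.82% lower and 11.8% in all. For the sum the ratio was 95.5 with all libraries, 259 without 67NR animal 4 and 117 without 66cl4 animal 3. In order, the sum was highest in 66cl4 CD45-, then 66cl4 CD45+, then 67NR CD45- and 67NR CD45+ cells. Neighbours in that order did not overlap except for 67NR CD45- and 67NR CD45+ cells.

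Beside these 3 genes the prolactin family was almost silent. Of 24 other listed family members, 23 were in the table, 14 were at 0 in every library and 1 reached 10 counts in a library. Among all 52783 genes in the table, 20231 were at 0 in every library. The share of all genes reaching 10 counts is not given, so these counts are a description only. That gene was Prl8a1, with means of 27.8, 26.2, 23.2 and 20.5 normalised counts in 66cl4 CD45-, 67NR CD45-, 66cl4 CD45+ and 67NR CD45+ cells. Its log2 fold change between the CD45- groups was 0.11 (SE 0.231, edgeR adjusted p = 0.690). Prolactin itself (Prl) reached at most 1 count.

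Igf2r, the receptor for proliferin, was lower in 66cl4 CD45- cells. It had 101, 127, 138, 112 and 117 normalised counts in 66cl4 and 1779, 2392, 1840, 2454 and 1923 in 67NR CD45- cells, with no overlap. The log2 fold change was -4.09 (SE 0.127, edgeR adjusted p = 7.86e-12). In the CD45+ groups Igf2r averaged 609 in 66cl4 and 518 in 67NR. Of the 6 genes of its list, which also holds the enzymes that add mannose 6-phosphate, 1 was called higher and 2 lower in 66cl4 CD45- cells, where 32.2% of all genes were called. The median log2 fold change was 0.25 against -0.01 for all genes tested. Igf2, a growth factor that Igf2r removes, was higher by 2.37 on the log2 scale (SE 0.453, adjusted p = 0.000432 in edgeR), and Gnptab, a subunit of the phosphotransferase, had a log2 fold change of -1.55 (SE 0.0987).

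Of 9 tested genes of prolactin receptor signalling, 1 was called higher and 2 lower, with a median of -0.53, close to the 32.2% called among all genes. Prlr, the prolactin receptor, averaged 56.9 ± 50.2 normalised counts in 66cl4 and 132 ± 103 in 67NR CD45- cells, overlapped between the groups and was not called (log2 fold change -1.19, SE 0.723, edgeR adjusted p = 0.173). Socs3, an inhibitor of cytokine signalling, was called higher (1.71, SE 0.251). The related inhibitors Socs2 and Cish, both known STAT5 targets, were called lower at -4.34 (SE 0.174) and -2.50 (SE 0.372). Cish averaged 6.92 normalised counts in 66cl4 and 41.1 in 67NR CD45- cells, against 265 and 275 in the CD45+ groups. The part that transcripts of CD45+ cells have in the CD45- values was not tested.

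AP-1 and the glucocorticoid receptor are regulators described for proliferin genes in cultured cells. None of the 8 tested passed both thresholds in the CD45- comparison in edgeR or in DESeq2, while 3 (Jun, Jund and Nr3c1) had an unadjusted p and an adjusted p under 0.05 in edgeR, with changes below the fold threshold. Their log2 fold changes ran from -0.71 (Jun) to 0.57, with a median of 0.16. Their transcripts were present in both tumours, as with Fos at 24326 ± 5812 normalised counts in 66cl4 and 19742 ± 6451 in 67NR CD45- cells.

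Of 18 listed trophoblast genes, 4 were at 0 in every library, as were 20231 of the 52783 genes in the table. The 4 tested were called, 2 higher and 2 lower in 66cl4 CD45- cells, where 32.2% of all genes were called. Eomes, a T-box factor of trophoblast stem cells and also of cytotoxic lymphocytes, rose by 5.44 (SE 0.287), from 4.21 to 190 normalised counts. Gata3 rose by 1.72 (SE 0.113). Gata2 and Plac1 had log2 fold changes of -2.999 (SE 0.400) and -1.85 (SE 0.377).

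**Figure D4:**
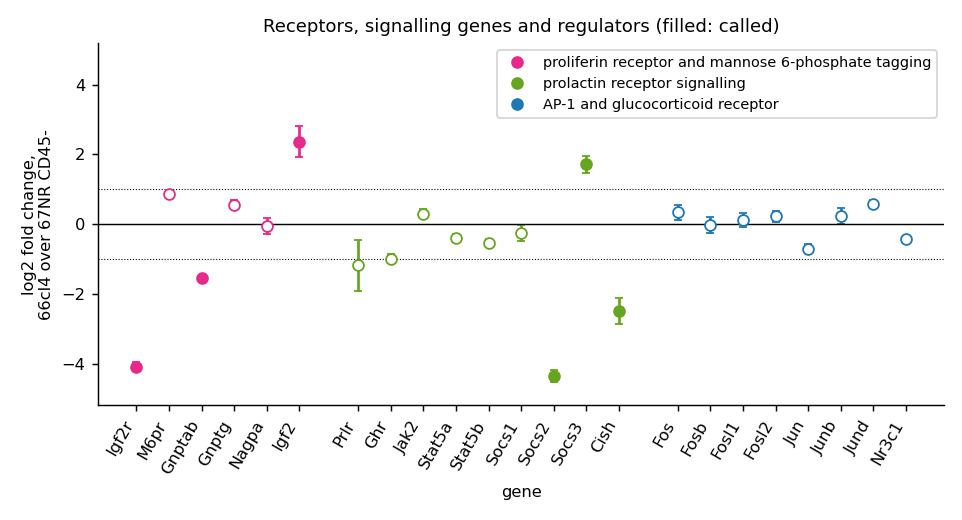
Log2 fold change, 66cl4 over 67NR CD45- cells, of genes for the proliferin receptor and mannose 6-phosphate tagging, prolactin receptor signalling, and AP-1 with the glucocorticoid receptor; bars are standard errors, filled points were called, and dotted lines mark -1 and 1. Igf2r (-4.09) and Socs2 (-4.34) lie lowest, and the AP-1 genes all lie between the dotted lines.

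The genes next to the proliferin cluster on chromosome 13 were compared in the same CD45- fit. Of the 20 nearest genes that RefSeq lists as protein-coding, 10 on each side, 13 were tested, 6 were called higher and 2 lower in 66cl4, where 13.2% and 18.9% of all genes were, and the median log2 fold change was 0.86 against -0.01 for all genes tested. One of the 20, Gm7040, is a pseudogene in GENCODE and was not tested. On one side the nearest tested genes were Ero1lb, an endoplasmic reticulum oxidase (1.36, SE 0.118), and Lgals8, a galectin (1.35, SE 0.0887). On the other side they were Gpr137b, a lysosomal membrane protein, and Nid1, a basement membrane protein.

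Gpr137b was the neighbour with the largest change. It held 3969, 4327, 4786, 5019 and 3727 normalised counts in 66cl4 and 233, 278, 201, 222 and 216 in 67NR CD45- cells. This gave a log2 fold change of 4.28 (SE 0.122, edgeR adjusted p = 3.58e-12). Nid1 went the other way, at 190 against 1598 on average (log2 fold change -3.03, SE 0.197). The members' changes of 9.48 to 9.71 were larger than that of every tested neighbour. Of 31 other annotated genes between Ero1lb and Gpr137b, 27 were in the table and 25 of these stayed under 10 counts in every library. The 2 above it, chosen after their values were seen, were Gpr137b-ps (3.04, SE 0.105), whose reads may be shared with Gpr137b, and the lincRNA Gm48544 (-2.26, SE 0.335).

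**Figure D5:**
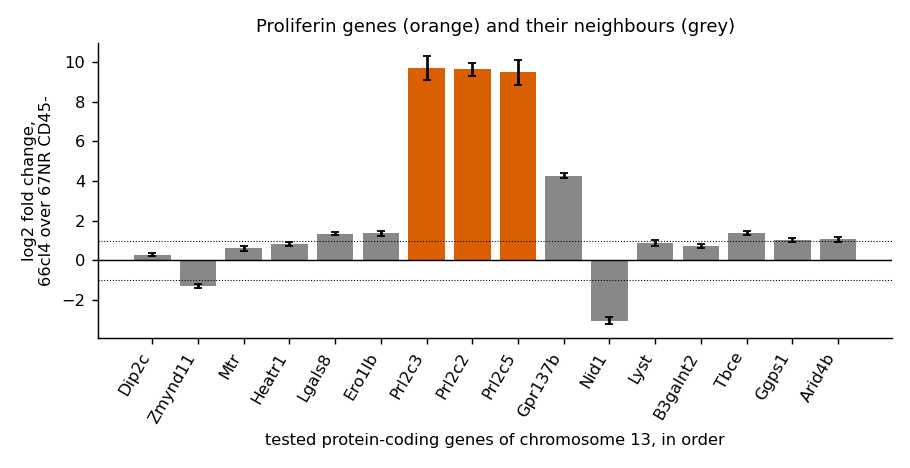
Log2 fold change, 66cl4 over 67NR CD45- cells, of the 3 proliferin genes (orange) and the 13 tested protein-coding neighbours (grey) in chromosome order; bars start at 0 and whiskers are standard errors. The proliferin genes stand at 9.48 to 9.71, Gpr137b at 4.28 and Nid1 at -3.03.

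The 10 genes whose log2 CPM followed the proliferin sum most closely, of 16450 compared over the 20 libraries, had Pearson r of 0.963 to 0.982. They were Fgfbp1 (0.982), Vmn1r139 (0.981), Sema3e (0.980), Padi4 (0.969), Csmd3 (0.968), Lbx1 (0.968), Prrx2 (0.967), Syt8 (0.966), Grem1 (0.966) and Ptgds (0.963). The libraries share the 4 groups, and 109 genes had r over 0.9. Fgfbp1, which releases fibroblast growth factors from the matrix, had 1804, 1642, 2348, 2930 and 2581 normalised counts in 66cl4 and 0, 0, 4.39, 1.56 and 2.05 in 67NR CD45- cells. Sema3e, a secreted semaphorin, had 4883, 4178, 4166, 4487 and 4281 against 3.51, 3.75, 7.02, 6.25 and 8.18.

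The proliferin sum differed from these genes in its spread within a group. Its coefficient of variation over the 5 libraries of 66cl4 CD45- cells was 39.1%, and that of the 10 genes was 6.81 to 23.7% with a median of 13.9%. Wide spread was not particular to the sum. Among fibroblast markers in these libraries it ran from 4441 ± 214 normalised counts (SD) for Pdgfra to 1390 ± 686 for Col3a1. In animal 3 the sum stood at 0.415 of its group median, and the 10 genes at 0.768 to 1.20 of theirs. The 67NR CD45- mean was 0.125% of the 66cl4 CD45- mean for the sum and 0.0708 to 2.36% for the 10 genes.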

How the data were processed

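RNA was sequenced from sorted CD45+ and CD45- cells of 66cl4 and 67NR tumours. The authors trimmed reads with fastp, quantified transcripts with Salmon 1.3.0 and summarised them to genes with tximport, and deposited estimated counts without normalisation. Per the labels the reference was GRCh38, a human build, whereas the identifiers are mouse, and the mouse build is not given in the sources used here. Salmon divides reads among similar transcripts by estimation: 16 to 17 of the 20 values of each proliferin gene were not whole. Symbols matched 51492 of 52783 identifiers. No coordinates come from the count table, and transcripts and lengths were taken from GENCODE.

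Estimated counts were rounded, changing no value by more than 0.5, and tested with edgeR 4.0.16 in R 4.3.3 (TMM, filterByExpr with a minimum count of 10 and total of 15, robust quasi-likelihood fit of the 2 groups compared). The SE is the absolute log2 fold change divided by the square root of F. Normalised counts are counts divided by DESeq2 1.42.0 size factors over 20 libraries. TPM was computed from the counts and median transcript lengths, leaving out 1291 genes without a length. The fits were tested on simulated data with changes far smaller than those of the proliferin genes, so that test does not cover values like theirs. Counts of 0 allow up to 3 counts, for counting error only.

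Libraries were grouped by title. The gates of a tumour come from the same animals, and deviations of same-animal libraries correlated at 0.0379 to 0.283 (66cl4) and -0.0232 to 0.385 (67NR). Animal numbers of different tumours mark different animals. Members and gene lists were chosen with earlier results of these data known. Named genes were the 3 members, prolactin family genes that passed the filter, Igf2r, Prlr, up to 4 called genes with the largest change per list, the 2 nearest tested neighbours on each side, the 10 genes of highest r, and Ptprc. Alternatives were DESeq2, other size factors and filters, 1 fit of all groups, a fold threshold in the test, an animal block, dropping the 66cl4 animals with contradicting labels, and dropping each library in turn.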

Additional observations from a re-analysis of the deposited data

Results flagged for a closer look

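The library of 67NR CD45+ animal 4 was an outlier among the 5 libraries of that group for each gene, by Dixon's test. It held 14.3 normalised counts of Prl2c2, 73.6 of Prl2c3, 4.40 of Prl2c5 and 92.3 of the sum, while the highest sum among the others was 15.6. The genes share reads and the sum contains them, so these are not 4 separate findings. Of 16 groups of 5 libraries examined, 4 stood apart, where chance gives about 0.8 (1 in 20). That figure takes the 16 as separate and their values as normally spread, while Prl2c2 and Prl2c5 were at 0 in several of these libraries. The 67NR CD45+ libraries are also among those by which the genes were chosen, so nothing is read from the excess. The animal 4 library was the highest of its group for 8 of the 10 genes most like the sum. Some of these were near 0, as with Vmn1r139 and Grem1 at 1.10 normalised counts against 0 in the others. The 10 genes were chosen by correlation with the sum over all 20 libraries, that library included, so this likeness is partly built in. The summed proliferin count of that library was 0.253% of the 66cl4 CD45- mean, and the level of the 10 genes was 0 to 1.74% of theirs, with a median of 0.297%. The cause was not tested.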

How the results depend on the processing

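No result changed direction. Leaving out each library in turn, the CD45- log2 fold change between tumours was 9.43 to 9.93 for Prl2c2, 9.48 to 9.93 for Prl2c3, 9.19 to 9.74 for Prl2c5 and 9.46 to 9.90 for the sum, and that of the sum between the 66cl4 gates was 3.55 to 4.14, all called. In 67NR it was 0.29 to 2.06 for Prl2c3 and 0.46 to 2.26 for the sum, and only leaving out CD45+ animal 4 made them called. The ratio of CD45+ means of the sum was 259 without 67NR animal 4 and 117 without 66cl4 animal 3, both chosen after seeing the data. Under the other settings the CD45- change of the sum was 9.33 to 9.72, and the genes called in that comparison numbered 3344 to 6774.

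With the animal as a replicate block, the sum changed by 4.23 between the 66cl4 gates and 1.42 between the 67NR gates, and no call changed. Between tumours the block can use only numbers 4 to 7, which mark different animals: the edgeR value was 9.68, and the difference in log2 level was 9.60 with an exact sign-flip p = 0.125, the smallest that 4 pairs allow. Deviations of same-numbered libraries correlated at -0.213 to -0.0176. The near-zero 67NR counts limit the precision of every ratio to that tumour.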
